A study of Mus musculus with 6 samples.

Results

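The genes described here are the mouse T cell receptor alpha variable (TRAV) genes whose names carry neither a D nor an N after the family number and that are not shared with the delta locus (no DV in the name). They were chosen by gene name alone, in single-cell V(D)J libraries from the spleens of 2 mice. In T cells, 3712 alpha contigs named 40 such genes, 1530 in the wild-type mouse and 2182 in the 564Igi mouse. All TRAV genes together gave 7727 contigs and 91 names. The remaining names were 41 genes with a D or N (3111 contigs) and 10 DV genes (904 contigs). A contig is an assembled receptor transcript, and a contig counted when it was flagged high-confidence and supported by at least 2 unique molecular identifiers (UMIs, tags that count captured transcript molecules).

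The wild-type mouse (WT) had the genotype C57BL/6JRj. The other mouse was heterozygous for 564Igi, alleles Igktm1(Igk564)Tik and Ightm1(Igh564)Tik on the background named B6.129S4(Cg), in which rearranged kappa and heavy chain genes of an autoreactive antibody stand in the B cell receptor loci. Spleen cells of both were depleted of Ter-119-bearing erythroid cells before droplet capture, and no treatment is named for either mouse. Age and sex are not given in the sources used here. Each group is 1 mouse, so there is no test between groups, and every interval below covers counting error only.

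The alpha locus holds many V genes followed by a long array of joining (TRAJ) genes and a single constant gene. A developing thymocyte first joins V genes near the array to the nearest TRAJ genes, and can then replace that joint by pairing a V gene farther upstream with a TRAJ gene farther downstream. TRAJ genes are numbered backwards, so a high TRAJ number lies close to the V genes and a low one close to the constant gene. In C57BL/6 mice the middle of the V array is repeated, and the D and N in gene names mark those repeated copies. The joint of V and J encodes most of CDR3, the loop that sits over the peptide, and the V gene itself encodes the loops that lie mainly over the MHC molecule.

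The gene names could be placed on GRCm38.p6, the assembly behind mm10, where all 40 names matched a RefSeq gene on chromosome 14. No named gene lay among the D and N copies. A 5' block of 7 genes lay upstream of every copy, from TRAV1 (chr14:52427967-52428876) to TRAV6-2 (chr14:52667411-52667864), over 239.9 kb. A 3' block of 33 genes lay downstream of every copy, beginning with TRAV7-2 (chr14:53390633-53391136), 722.8 kb after the 5' block ended. TRAV19 (chr14:53845322-53845827), the last of them with a productive chain, ended 310.3 kb before the first TRAJ gene, and TRAV1 ended 1727 kb before it. The numbers in the names do not follow that order inside the 3' block, where TRAV5-4 (chr14:53704007-53704514) lies between TRAV9-4 and TRAV7-6. The RefSeq table lists 50 genes of this kind, 8 of them pseudogenes, and 10 of the 50 were not seen, among them TRAV20. TRAV23 was the only 1 of the 8 pseudogenes seen, and it appeared only in nonproductive contigs, 1 in each mouse. The other pseudogenes are thus among the 10 genes not seen.

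The chains below show what was read for these genes: the CDR3 of an alpha chain, with the bases that the V gene's chains share at the 5' end in capitals and the rest of the joint and the TRAJ gene in lower case. They run from the farthest to the nearest V gene, with the D or N copy under TRAV5-4 and TRAV16. A base was counted as shared when at least 90% of the gene's distinct chains carried it, and the example is a chain with that start seen in both mice or, failing that, in most cells.
TRAV1 with TRAJ23: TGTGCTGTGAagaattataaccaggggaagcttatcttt
TRAV5-1 with TRAJ31: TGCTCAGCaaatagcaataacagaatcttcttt
TRAV7-2 with TRAJ37: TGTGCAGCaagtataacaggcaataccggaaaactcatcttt
TRAV6-6 with TRAJ31: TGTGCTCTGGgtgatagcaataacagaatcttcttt
TRAV9-4 with TRAJ49: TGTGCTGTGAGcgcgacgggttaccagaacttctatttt
TRAV5-4 with TRAJ34: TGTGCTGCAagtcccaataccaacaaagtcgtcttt
TRAV5D-4 with TRAJ13: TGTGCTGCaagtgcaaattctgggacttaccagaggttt
TRAV16 with TRAJ50: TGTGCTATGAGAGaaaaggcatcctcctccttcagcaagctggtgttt
TRAV16N with TRAJ16: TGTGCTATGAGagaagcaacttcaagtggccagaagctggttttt
TRAV19 with TRAJ57: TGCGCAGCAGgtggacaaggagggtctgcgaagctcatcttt

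In the 29 genes with at least 40 distinct chains, the shared start ran from 6 to 13 bases with a median of 8. TRAV16 had the longest start, and the first 11 of its bases also open TRAV16N. TRAV5-4 and TRAV5D-4 share their first 8 bases in the same way, so these bases do not tell their chains apart, and the names are used as deposited. How well those names separate near-identical copies was not tested.

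Depth came to 86409 UMIs from 30190690 reads for the WT T cell library and 114433 UMIs from 32922893 reads for that of 564Igi. After barcodes also called as B cells were left out (345 and 373), 3263 WT and 4573 564Igi T cells remained, of which 71.9% and 73.1% had a productive alpha chain. Chains of the genes described here rested on a median of 4 UMIs in each mouse, and other TRAV chains on 5. Member contigs were found in 42.2% and 42.6% of T cell barcodes. Among barcodes called as B cells only, they were in 0 of 6513 WT and 3 of 3827 564Igi, or 0.0784% in 564Igi. In WT, 3 counts would be a share of 0.0461%. Barcodes called as both B and T cells were left out of this B cell set too. Its low share was in part set by that choice and does not cover them. In the T cell libraries, immunoglobulin contigs were present in 4 and 8 of the T cells. The B cell libraries were not searched for contigs of these cells. The mice shared 23 T cell barcodes, none with the same alpha chain.

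Each T cell was given 1 primary alpha chain, the productive contig with most UMIs. By that measure the genes without D or N supplied 49.5% (47.5 to 51.6, exact 95% interval) of 2346 WT alpha chains and 48.3% (46.6 to 49.99) of 3343 564Igi chains. The 564Igi mouse minus WT came to -1.25 points (-3.91 to 1.41), an interval that includes 0. Alpha contigs not flagged productive, of which 82 in WT and 119 in 564Igi were not full length, gave 46.4% (41.7 to 51.1) of 455 in WT and 45.1% (41.4 to 48.8) of 725 in 564Igi. D and N copies took 39.3% and 39.5% of primary chains.

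Usage was spread over many genes, with 39 used in each mouse and a median share of 1.11% in WT and 1.08% in 564Igi. The 8 genes with the highest mean share held 43.03% and 41.6% of the member chains. TRAV6-6 led in both mice, at 3.45% of WT chains (2.75 to 4.27) and 3.05% in 564Igi (2.50 to 3.69). TRAV13-1 followed at 3.20% and 2.96%. TRAV12-2 stood at 3.03% and 2.54%. The intervals of these 3 genes overlapped within each mouse, so their order is not resolved.

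The other 5 genes of that group were TRAV7-2 (2.22% and 2.63%), TRAV5-4 (2.98% and 1.80%), TRAV10 (2.39% and 2.24%), TRAV14-2 (2.09% and 2.39%) and TRAV7-4 (1.96% and 2.15%). At the other end, TRAV18 was found as 1 chain in each mouse. TRAV17 stood at 0.767% and 0.748%. The 5' block was little used, with 85 of 1162 WT member chains (7.32%) and 103 of 1614 564Igi chains (6.38%). Its most used gene was TRAV5-1, at 0.980% and 0.838%. TRAV1, the V gene of mucosal-associated invariant T (MAIT) cell receptors, made up 0.426% and 0.359%. TRAV2 was seen in 9 WT and 3 564Igi chains. TRAV20 was in no contig, so in 0 of 2346 WT and 0 of 3343 564Igi primary chains, where 3 chains would be 0.128% and 0.0897%. Across the 26 genes with at least 20 chains in each mouse, shares in the mice had a rank correlation (Spearman's rho) of 0.831, a description over genes that share the same libraries.

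**Figure D1:**
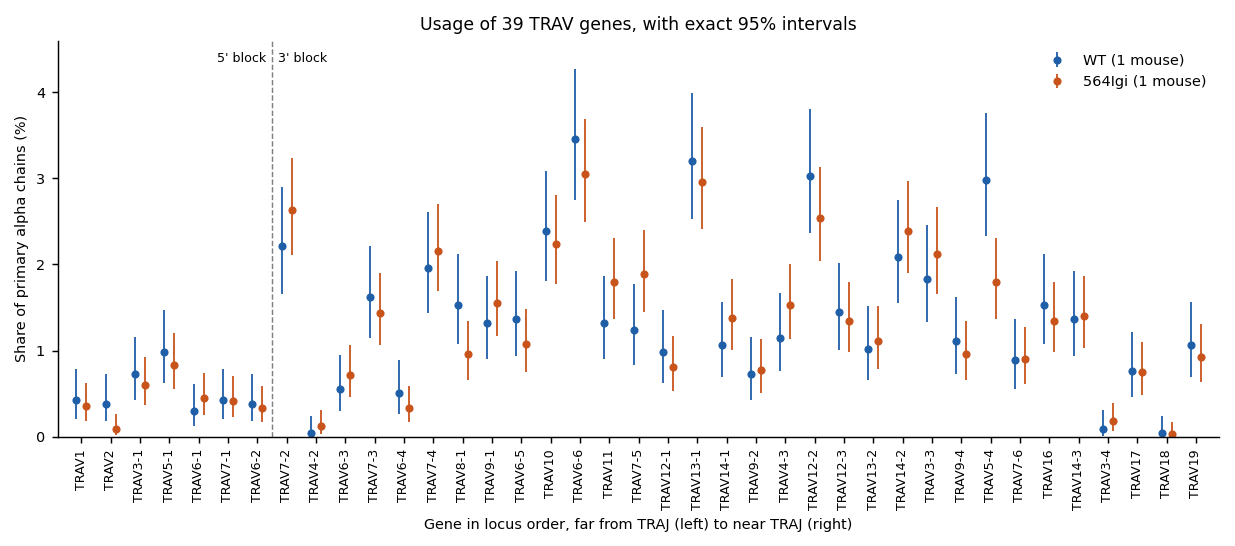
Share of primary alpha chains (y axis, %) for each of 39 genes in locus order (x axis), as points with exact 95% intervals in WT and 564Igi, 1 mouse each. The 7 genes left of the dashed line stay below 1% in both mice, and the points of TRAV5-4 lie at 2.98% in WT and 1.80% in 564Igi.

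The UMI threshold moved some of these shares, and genes differed in UMIs per chain. TRAV6-6 and TRAV16 chains had a median of 3 UMIs in each mouse, and TRAV7-2 chains 6 in WT and 5 in 564Igi. When at least 5 UMIs were required, TRAV6-6 fell to 1.68% and 1.84%, while TRAV7-2 stood at 3.19% and 3.25%. TRAV16 went from 1.53% to 0.354% in WT and from 1.35% to 0.491% in 564Igi. The rank order of usage therefore depends on that threshold. The share of all members was then 46.5% and 44.4%.

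Usage was compared gene by gene between the mice with a fold of 1.5 as the size that counts. Of all 53 TRAV genes with at least 40 chains in both mice together, 3 were higher in 564Igi by that fold (5.66%) and 4 lower (7.55%), 13.2% in either direction. Of the 28 such genes without D or N, 3 were past it (10.7%), which is close to the background. TRAV7-5 was 1.53 times higher in 564Igi, from 29 WT and 63 564Igi chains. TRAV8-1 was at 0.624 of the WT share, from 36 and 32 chains. The intervals of both differences included 0 (-0.0397 to 1.31 points and -1.23 to 0.0248 points). The remaining gene was TRAV5-4. The median ratio of 564Igi to WT was 0.957 over the 28 genes and 0.988 over the 53. Among TRAV genes, 4 of 53 (7.55%) had a difference whose interval left out 0, and 1 of them, TRAV5-4, was a gene without D or N.

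TRAV5-4 was singled out because its share had been seen to differ between the mice, so the difference is a description. It supplied 70 of 2346 WT chains, or 2.98% (2.33 to 3.75), and 60 of 3343 564Igi chains, or 1.80% (1.37 to 2.30). The difference was -1.19 points (-2.07 to -0.363). It ran from -0.991 to -1.34 points under the other chain and cell filters tried. The repeated copy TRAV5D-4 went the other way in value, from 0.810% (19 chains) to 1.17% (39 chains), and its difference of 0.357 points had an interval that included 0 (-0.206 to 0.890). With both names merged the shares were 3.79% and 2.96%, and the difference of -0.832 points (-1.85 to 0.138) no longer left out 0. In nonproductive contigs TRAV5-4 stood at 2.42% (11 of 455) in WT and 0.966% (7 of 725) in 564Igi, a difference of -1.45 points (-3.41 to 0.122).

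Nearly every TRAV5-4 chain was distinct in both mice. WT held 68 distinct chains in 70 cells and 564Igi 60 in 60. They used 25 and 22 TRAJ genes. The most frequent joint partner was TRAJ43 in WT (7 chains) and TRAJ31 in 564Igi (5 chains). The median TRAJ number was 43 in each mouse (39 to 48 and 40 to 48). Mean CDR3 length was 13.4 ± 1.58 amino acids (SD over 70 cells) and 13.3 ± 1.63 (60 cells). TRAV5-4 chains paired with 18 beta V genes in WT and 20 in 564Igi.

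V genes at different places in the locus were joined to different parts of the TRAJ array, in both mice. The 5' block used TRAJ40 or higher, the part of the array nearest the V genes, in 6 of 85 WT chains (7.06%) and 6 of 103 564Igi chains (5.83%). In the 3' block the shares were 400 of 1077 (37.1%) and 556 of 1511 (36.8%). The 3' block minus the 5' block came to 30.1 points (21.9 to 35.4) in WT and 31.0 points (24.1 to 35.4) in 564Igi. Nonproductive contigs gave differences of 27.7 points (4.92 to 35.2, from 15 and 166 contigs) and 26.8 points (11.4 to 33.7, from 29 and 258). The difference between blocks thus had the same direction in contigs not flagged productive.

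Within the 3' block the shift continued gene group by gene group. Taking the 32 genes with productive chains in locus order, 8 at a time, the median TRAJ number in WT was 27 for TRAV7-2 to TRAV9-1. It was 30 for TRAV6-5 to TRAV14-1 and 37 for TRAV9-2 to TRAV9-4. It reached 47 for TRAV5-4 to TRAV19. The 564Igi medians were 27, 30, 37 and 48. The 5' block stood at 26 in each mouse, close to the first of these groups although it lies far upstream of it.

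TRAJ40 or higher made up 18.3%, 24.7%, 42.6% and 71.7% of WT chains in the 4 groups of 8 genes, and 18.4%, 25.2%, 42.9% and 75.1% in 564Igi. TRAJ20 or lower, the end near the constant gene, made up 21.8%, 23.3%, 9.62% and 2.93% in WT. In 564Igi it made up 24.2%, 26.0%, 6.32% and 1.22%. The second group thus lay slightly above the first in both mice, with overlapping intervals, and the lower shares were those of the other two. The 5' block used that end in 25.9% and 30.1% of chains. The last group and the first did not overlap in their intervals at either end of the array, in either mouse.

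**Figure D2:**
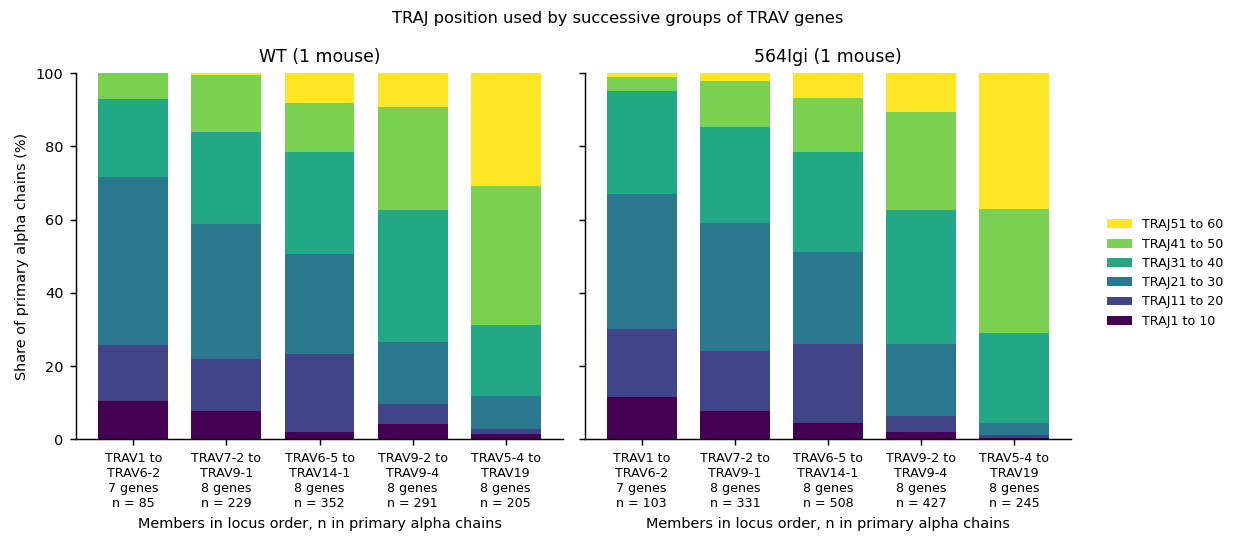
Share of primary alpha chains (y axis, %) that used each stretch of 10 TRAJ numbers (colours), for the 5' block and 4 successive groups of 8 genes of the 3' block (x axis), in WT (left) and 564Igi (right), 1 mouse each. TRAJ51 to TRAJ60 fill 30.7% of WT and 37.1% of 564Igi chains in the group nearest the array and none of the WT chains of the 5' block.

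Nonproductive contigs gave medians from fewer contigs. In WT they were 25 in the 5' block and then 27, 31, 34 and 42 along the 3' block, from 15, 23, 60, 57 and 26 contigs. In 564Igi they were 27, then 26.5, 32, 32 and 49, from 29, 42, 81, 106 and 28 contigs. In WT the medians rose from group to group, while in 564Igi the first group of 8 lay 0.5 below the 5' block and the middle groups were equal. The group nearest the array had the highest median in both mice.

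Single genes followed the same line. TRAV19, the used gene nearest the array, had a median TRAJ number of 53 (43 to 56) in 25 WT chains and 56 (48 to 56) in 31 564Igi chains. It used TRAJ40 or higher in 80.0% and 90.3% of them. TRAV14-3 stood at 49 (48 to 53) and 48 (44 to 52), and TRAV16 at 47 (39 to 49) and 48 (43 to 52). These 3 genes had the highest TRAJ positions by mean among genes with at least 20 chains in each mouse, and their intervals overlapped.

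At the low end of that ranking stood TRAV11, TRAV5-1 and TRAV7-2. TRAV7-2, the first gene of the 3' block, had medians of 24.5 (22 to 30) and 26 (23 to 31). TRAV5-1, in the 5' block, had 23 (12 to 26) and 23 (18 to 31). TRAV5-1 and TRAV5-4 are namesakes that lie 1081 kb apart, with median TRAJ numbers of 23 and 43 in each mouse. TRAV1 chains had medians of 25 and 26.5 from only 10 and 12 chains. TRAV17, between TRAV14-3 and TRAV19 on the chromosome, had medians of 49.5 (18 chains) and 52 (25 chains). TRAV11 stood out from its neighbours at 18 in both mice, the number of the TRAJ gene of its invariant chain.

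**Figure D3:**
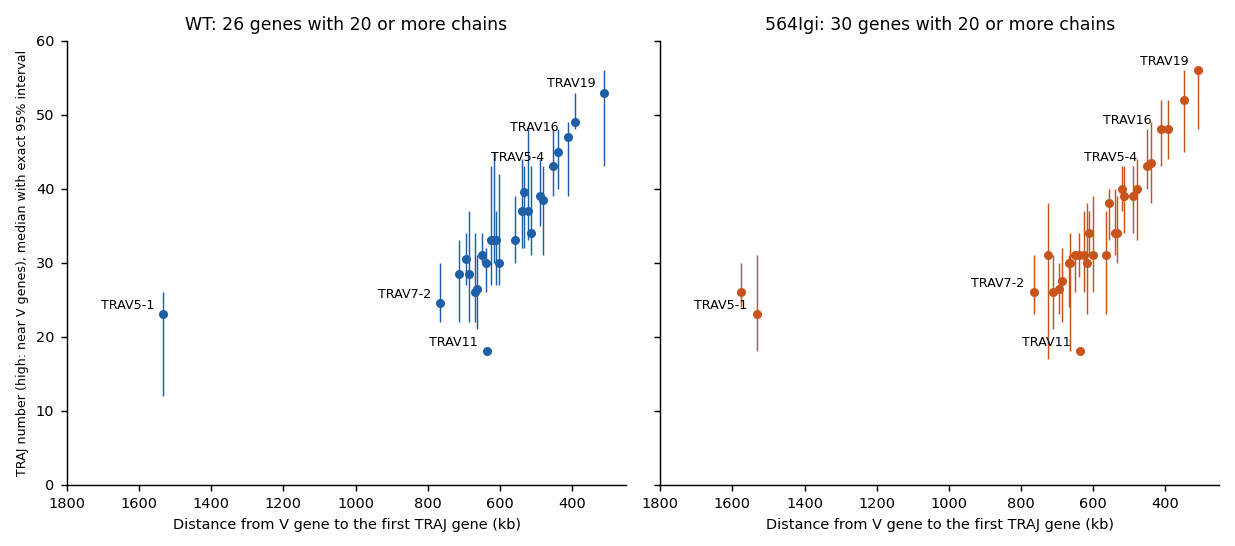
Median TRAJ number (y axis, with exact 95% interval) of each gene with at least 20 chains against its distance from the first TRAJ gene (x axis, kb, running from far to near), in 26 genes of WT (left) and 30 genes of 564Igi (right). The points climb toward the array from TRAV7-2 to TRAV19, with TRAV11 below the rest at 18.

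Across genes, the start coordinate and the median TRAJ number had a rank correlation of 0.923 over 26 genes in WT and 0.930 over 30 genes in 564Igi. Without TRAV11 it was 0.951 and 0.959, and within the 3' block alone 0.921 and 0.927. That block held 25 of the 26 WT genes and 28 of the 30 in 564Igi, so the 5' block hardly enters these values. Ordering the genes by the number in their name gave only 0.424 and 0.501. These are descriptions over genes of a single locus that share libraries and TRAJ genes. Median TRAJ numbers of the 26 genes counted in both mice correlated at 0.935 between the mice. Usage and coordinate correlated at -0.161 and -0.0485 over the genes with at least 20 chains. That minimum is itself a cut on usage and left out most of the little-used 5' block. These values therefore cannot show whether usage follows the coordinate over the whole locus.

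The repeated copies gave a comparison within a name, since a D or N copy is a near-identical V gene farther from the TRAJ array. With at least 20 chains on each side, 14 pairs could be compared in WT and 20 in 564Igi. The gene without D or N had the higher median TRAJ number in 14 of 14 WT pairs, by a median of 12.75. In 564Igi it was higher in 17 of 20, by a median of 13 over all 20. The exceptions were TRAV7-2 with TRAV7D-2 (26 for both), TRAV7-4 with TRAV7D-4 (26.5 and 29) and TRAV7-5 with TRAV7D-5 (31 and 32). With at least 10 chains on each side, a minimum chosen after seeing the data, the gene without D or N was higher in 21 of 23 WT pairs and in 22 of 27 pairs in 564Igi. The WT exceptions were TRAV8-1 with TRAV8D-1 (28.5 and 34, 12 copy chains) and TRAV10 with TRAV10D (31 for both, 11 copy chains). The exceptions added in 564Igi were TRAV6-5 with TRAV6D-5 (30 and 33, 15 copy chains) and TRAV9-1 with TRAV9D-1 (30 for both, 13 copy chains).

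TRAV16 and its copy TRAV16N, 392.1 kb upstream, were among the most separated pairs. Their medians were 47 and 23 in WT and 48 and 30 in 564Igi. TRAV14-3 and TRAV14N-3 stood at 49 and 26 in WT and at 48 and 23 in 564Igi. TRAV5-4 used TRAJ40 or higher in 61.4% (49.03 to 72.8) of 70 WT chains and 66.7% (53.3 to 78.3) of 60 564Igi chains. TRAV5D-4, 702.3 kb upstream, did so in 0 of 19 WT chains, where 3 chains would be 15.8%. In 564Igi TRAV5D-4 did so in 6 of 39 chains (15.4%, 5.86 to 30.5). Pooling each gene with its copies lowered the rank correlation of coordinate and TRAJ number to 0.633 in WT and 0.714 in 564Igi.

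**Figure D4:**
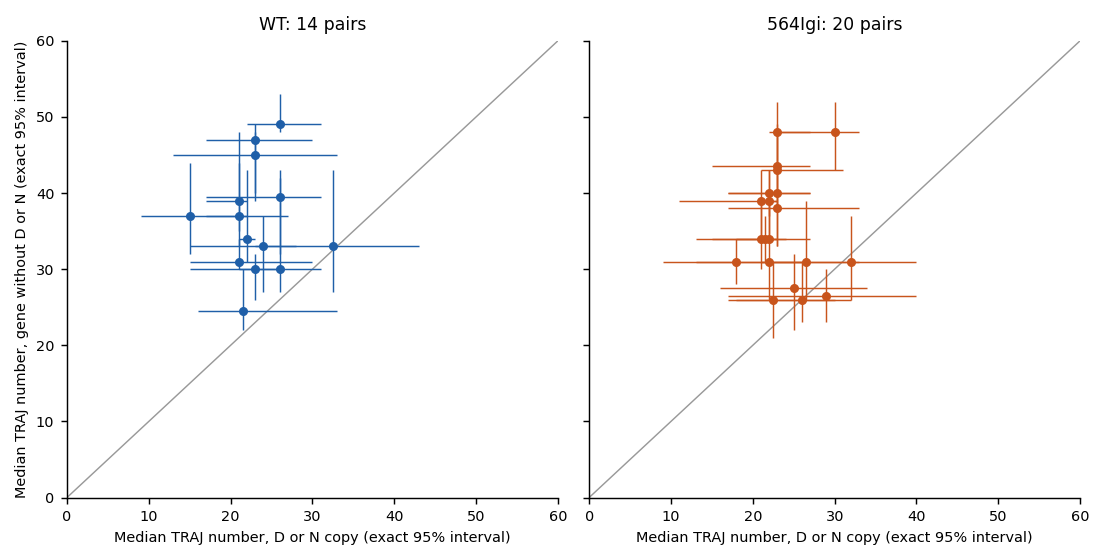
Median TRAJ number of each gene without D or N (y axis) against that of its D or N copy (x axis), with exact 95% intervals, for 14 pairs in WT (left) and 20 pairs in 564Igi (right) with at least 20 chains on each side. The diagonal marks equal medians, and all 14 WT pairs and 17 of 20 564Igi pairs lie above it.

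TRAV11 carries the invariant alpha chain of natural killer T (NKT) cells, which recognise lipids on CD1d, and its joint was nearly fixed. TRAJ18 was its partner in 30 of 31 WT chains and 57 of 60 564Igi chains. Other member chains used TRAJ18 in 0.973% and 1.22% of cases. TRAV11 with TRAJ18 made up 2.58% (1.75 to 3.67) of WT member chains and 3.53% (2.69 to 4.55) of 564Igi member chains. The difference of 0.950 points had an interval that included 0 (-0.425 to 2.27).

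All productive TRAV11-TRAJ18 contigs of both mice carried 1 of 6 CDR3 sequences of 45 bases, printed here because the whole set differs at 1 codon. Capitals mark that codon, codon 4 of the CDR3 (bases 10 to 12, counted from 1 at the 5' end), where the V and J ends meet.
Chain a, 9 WT and 28 564Igi contigs: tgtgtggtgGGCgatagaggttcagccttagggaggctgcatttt
Chain b, 8 WT and 15 564Igi contigs: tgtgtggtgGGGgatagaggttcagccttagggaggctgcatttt
Chain c, 8 WT and 8 564Igi contigs: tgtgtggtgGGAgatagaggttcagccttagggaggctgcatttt
Chain d, 4 WT and 9 564Igi contigs: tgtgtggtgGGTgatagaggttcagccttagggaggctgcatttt
Chain e, 1 WT and 1 564Igi contig: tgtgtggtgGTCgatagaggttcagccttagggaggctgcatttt
Chain f, 1 WT contig: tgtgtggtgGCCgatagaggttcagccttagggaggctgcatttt

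The first 4 chains encode the same glycine with a different last base of the codon, and together they made up 29 of 31 WT and 60 of 61 564Igi contigs. The other 2 encode valine and alanine there. Of the 6 chains, 5 were found in both mice, and all encode 15 amino acids. By contrast TRAV6-6, the gene with the highest share at the minimum of 2 UMIs, gave 81 distinct chains in 81 WT cells and 100 in 102 564Igi cells.

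The beta partners of TRAV11-TRAJ18 were those known for invariant NKT cells. TRBV13, TRBV29 or TRBV1 was the beta V gene in 28 of 29 WT cells (96.6%) and 53 of 56 564Igi cells (94.6%). The same genes partnered 32.2% and 31.9% of other member chains. TRBV13, with a joined TRBV12-2 and TRBV13-2 name counted in, accounted for 79.3% and 73.2%, TRBV29 for 13.8% and 16.1%, and TRBV1 for 3.45% and 5.36%. These intervals are wide at this number of cells.

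The MAIT alpha chain, TRAV1 with TRAJ33, was nearly absent. It was in 0 of 1162 WT member chains, where 3 chains would be 0.258%, and in 1 of 1614 564Igi chains (0.0620%). The beta chain of that cell was neither TRBV13 nor TRBV19, the partners known for MAIT cells. Other members used TRAJ33 in 3.65% of WT and 2.18% of 564Igi chains, a difference of -1.46 points (-2.87 to -0.150). That is 1 of many differences taken between the mice, with no background over other TRAJ genes, so it is a description.

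CDR3 lengths were close to those of the other TRAV genes. They averaged 13.5 ± 1.56 amino acids (SD over 1162 cells) in WT and 13.5 ± 1.57 (1614 cells) in 564Igi, from 4 to 18. D and N copies averaged 13.4 in each mouse, and DV genes 13.9 and 13.8. Cells of a mouse are not replicates, so these SDs describe cells. The 5' block (13.4 ± 1.42 and 13.5 ± 1.21) and the 3' block (13.5 ± 1.57 and 13.5 ± 1.59) were alike in length.

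TRAV16 and TRAV11 had the longest loops. TRAV16 averaged 14.8 ± 1.22 amino acids (36 cells) in WT and 15.3 ± 1.24 (45 cells) in 564Igi. Loops of at least 15 amino acids made up 58.3% (40.8 to 74.5) and 75.6% (60.5 to 87.1) of its chains, against 18.4% and 18.3% of the other members without TRAV11. Its copies were long as well, at 14.97 and 14.5 for TRAV16N and 14.7 in each mouse for TRAV16D-DV11. TRAV11 averaged 14.9 ± 0.359 and 14.9 ± 0.362, an SD far below that of any other gene named here, since its CDR3 is nearly invariant.

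Averaged over both mice, the shortest loops were those of TRAV7-3 and TRAV9-4, though they were not the shortest pair in either mouse alone. TRAV7-3 averaged 12.8 ± 1.70 (38 cells) and 13.1 ± 1.07 (48 cells). TRAV9-4 averaged 13.2 ± 1.78 (26 cells) and 12.7 ± 2.41 (32 cells). TRAV9-4 nonetheless has the second longest shared V start of the 29 genes compared above, 11 bases, so a long start did not always go with a long loop. Mean lengths of the 26 genes correlated at 0.594 between the mice, less than their TRAJ positions. Length and coordinate correlated at 0.334 and 0.302.

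**Figure D5:**
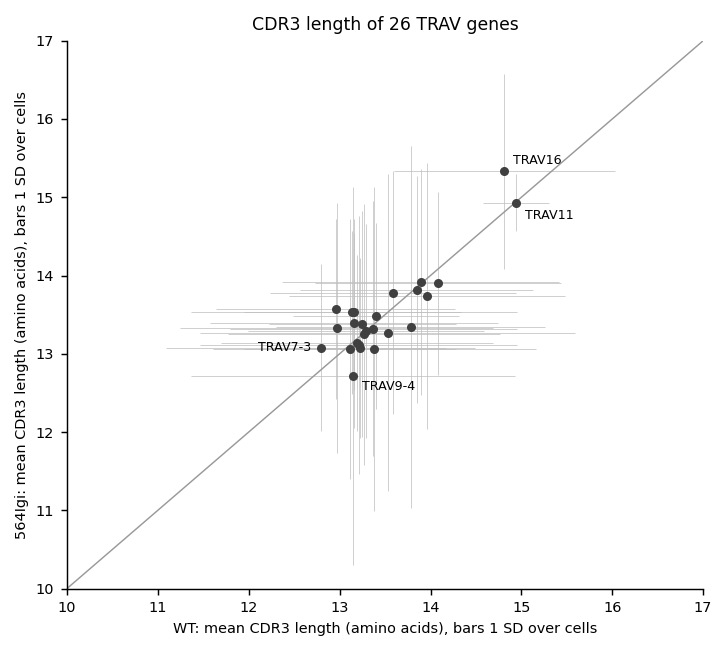
Mean CDR3 length of 26 genes in WT (x axis, amino acids) and 564Igi (y axis), with bars of 1 SD over cells and a line of equal lengths. TRAV16 (14.8 and 15.3) and TRAV11 (14.9 and 14.9) lie above all other genes, and TRAV7-3 and TRAV9-4 have the lowest mean of both mice.

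A beta chain was found beside 94.8% of WT and 94.4% of 564Igi member chains. The beta V genes paired with members were compared with those paired with other TRAV genes, by group. The TRBV13 family made up 13.5% (11.6 to 15.7) and 14.2% (12.5 to 16.04), against 16.0% (13.9 to 18.2) and 15.1% (13.4 to 16.9) beside other TRAV genes. TRBV1 to TRBV5 made up 27.5% and 26.3%, against 23.5% and 25.8%. The TRBV12 family stood at 8.44% and 7.95%, against 7.26% and 8.79%. TRBV14 to TRBV31 made up 37.3% and 38.2%, against 40.7% and 37.6%. TRBV6 to TRBV11 made up 4.27% and 3.35%, against 5.83% and 4.82%. Names that join a TRBV12 and a TRBV13 gene made up 8.98% and 9.98%, against 6.73% and 7.87%. For each of these groups the intervals of members and other TRAV genes overlapped within each mouse. TRBV1 to TRBV5 and the joined names were the higher beside members in both mice, and TRBV6 to TRBV11 and the TRBV13 family the lower. The joined names were counted as TRBV13 for the NKT chains above but stand apart here. The lower TRBV13 share therefore holds only for names given to TRBV13 alone. TRAV11 cells with the joined TRBV12-2 and TRBV13-2 name supplied 14 of the 99 WT and 29 of the 152 564Igi joined names beside members.

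Of 26 genes with at least 20 paired chains in each mouse, 3 had the same leading beta partner in both, TRAV11, TRAV14-2 and TRAV14-3. No such count is given for other TRAV genes. A leading name could rest on few cells, as for TRAV7-6 in WT (3 of 20). The count therefore does not show that the remaining genes changed partner between the mice. TRAV5-4 chains paired most with TRBV3 in WT (12 of 69 cells, 17.4%) and with TRBV5 in 564Igi (7 of 58, 12.1%). TRAV7-5 chains paired most with TRBV1 in WT (9 of 29, 31.0%) and with TRBV3 in 564Igi (6 of 61, 9.84%). TRAV11 kept its leading name, the joined TRBV12-2 and TRBV13-2, in 14 of 30 WT and 29 of 59 564Igi cells. Each of these partners was picked as the most frequent of a gene, so its share is a description.

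Few member chains were shared or repeated. Of 1127 distinct WT chains and 1540 distinct 564Igi chains, 24 had the same V gene, TRAJ gene and CDR3 bases in both mice, 2.13% of the WT and 1.56% of the 564Igi chains, and 19 of them were not TRAV11 with TRAJ18. The largest clone, cells with the same alpha and beta chain, had 2 cells in each mouse. Clones of at least 2 cells held 8 of 1102 paired WT cells (0.726%) and 14 of 1523 paired 564Igi cells (0.919%).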

How the data were processed

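Single-cell V(D)J libraries of T and B cell receptors from 1 WT and 1 564Igi spleen were used, 4 of 6 libraries. Gene expression was not analysed here, and receptor calls alone define T and B cells. The deposited tables list, per the file headers, raw read and UMI counts, contig length in bases, gene names, CDR3, a cell flag and a confidence flag per contig. Cell Ranger 3.0.2 and mm10 appear in the submitters' processing notes, with no role for either. The criteria behind both flags are not given in the sources used here.

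T cells were barcodes called in the T table and not in the B table of the same mouse. No doublet caller was run. Contigs had to be high-confidence with at least 2 UMIs. The primary chain was the productive contig with most UMIs. Shares have exact Clopper-Pearson 95% intervals, differences (564Igi minus WT) Newcombe intervals, and medians exact order-statistic intervals, all for counting error only. Beside a 0 stands the share that 3 counts would have. No p-value was computed, with 1 mouse per group. Gene positions and types come from the RefSeq table of GRCm38.p6.

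Genes and lists were chosen with earlier results of these data known. Values are given for the 8 genes with the highest mean share, the 3 highest and 3 lowest by mean TRAJ number, the 2 longest and 2 shortest by CDR3, genes past 1.5-fold with at least 40 chains, and a fixed list (TRAV1, TRAV2, TRAV5-1, TRAV5-4, TRAV11, TRAV16 to TRAV20). Scripts were tested on simulated data. Alternatives changed the UMI minimum, the cells and chains counted, the thresholds and the merging of copies. Calculations used SciPy 1.17.1 and NumPy 2.4.6 with pandas 2.3.3 under Python 3.11.15, and figures matplotlib 3.10.9.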

Additional observations from a re-analysis of the deposited data

How the results depend on the processing

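Of 177 comparisons of main values with an alternative, 150 stayed within the spread or 1.5 times, 27 moved and none reversed. For rank correlations the limit was a change of 0.1. Shares, lengths and counts cannot change sign, so a reversal was possible at most for differences and rank correlations. Of 546 comparisons for single genes, 528 stayed and 18 moved. A minimum of 5 UMIs moved most: the member share was 46.5% in WT and 44.4% in 564Igi, that of nonproductive contigs 36.4% and 38.9%, TRAV5-4 2.21% and 1.17%, the WT mean CDR3 length 13.3, the WT rank correlation by TRAV number 0.299, and in 564Igi the TRBV13 share 12.5%, TRAV11-TRAJ18 2.49%, member contigs in B cell barcodes 0% and copy pairs with the member higher 100%. With 1 UMI, B cell barcodes with a member contig were 0.1996% in WT and 0.287% in 564Igi. In cells with exactly 1 alpha chain, TRAV1-TRAJ33 was 0% and copy pairs 100% in 564Igi. With each distinct chain counted once, TRAV11-TRAJ18 was 0.532% and 0.325%. A fold of 2 left 0 member genes past it, and the ratios of all 53 TRAV genes ran only from 0.55 to 1.69. A minimum of 20 chains gave 5 member genes past 1.5-fold. No share over all TRAV genes is given at that minimum, so the 5 cannot be set against a background. The rank correlation by number became 0.923 and 0.930 by coordinate, 0.572 in WT with at least 10 chains, and 0.328 in 564Igi with copies merged. By coordinate, merging gave 0.633 and 0.714. From TRAJ45, the 564Igi block difference was 20.1 points. The cause of these moves was not tested. The rank correlation by coordinate as a value with its own alternatives, TRAV11 left out, nonproductive block differences, full-length contigs, TRAV5D-4 merged and the copy pairs with their alternatives were chosen after seeing the data. Nonproductive contigs were not counted once per distinct chain, since many lack a CDR3. No paired analysis was possible because each group is 1 mouse. At 20 to 100 chains per gene, the interval of a difference in usage between the mice spans 1 to 2 points.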
